A study of Mus musculus with 4 samples.

Results

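The nuclear genes for the proteins of the mitochondrial ribosome were compared between TA muscle of Old and Young mice. A gene belonged to the family when its symbol began with Mrpl (large subunit) or Mrps (small subunit) and its locus had an expression value in every sample. This gave 70 of the 20340 gene labels analysed, 43 of the large and 27 of the small subunit, on 15 chromosomes. RefSeq lists 78 mouse protein-coding genes with such symbols. Of the other 8, Mrpl57 and Mrpl58 did not meet the rule because the values carry their older symbols, and Mrpl3, Mrpl4, Mrpl17, Mrpl34, Mrps22 and Mrps31 were not analysed here.

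The TA (tibialis anterior) is a fast muscle on the front of the shin. The Old group was C57BL/6 mice aged 20 months and the Young group C57BL/6 mice aged 3 months, both wild type and untreated as far as the labels say, with 2 samples per age (Old 1, Old 2, Young 1 and Young 2). The labels do not say which or how many mice gave each sample, and the methods state that the sex of the mice was selected at random. Expression was deposited as FPKM, the sequenced fragments set against transcript length and against the total mapped in that sample.

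Mitochondria keep a small genome of their own, which encodes a few core subunits of the respiratory chain together with the ribosomal and transfer RNAs needed to make them. The mitochondrial ribosome translates these messages at the inner membrane. Its proteins are all encoded in the nucleus, made in the cytosol and imported. The small subunit binds the mRNA and reads the codons, and the large subunit joins the amino acids and leads the new chain towards the membrane. Many of its proteins have counterparts in bacterial ribosomes and others are found only in mitochondria. Skeletal muscle depends on this machinery because it is rich in mitochondria.

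The samples of each age differed by a factor that was reduced by scaling before the ages were compared. Each age held 1 higher and 1 lower sample. The median log2 fold change of the family was -0.13 before scaling and -0.12 after it. Over the 70 genes, Old 1 held a median of 2.0 times the deposited FPKM of Old 2, and Young 2 held 1.95 times that of Young 1. The sum of all FPKM values was 698130 in Old 1 and 739302 in Young 2, against 226747 in Old 2 and 251294 in Young 1. Loci listed at 0 numbered 5223 in Old 1 and 5335 in Young 2, against 9558 in Old 2 and 9452 in Young 1. Each sample was therefore divided by the median ratio of its genes to their mean over the samples, and values below are scaled FPKM unless stated. Once scaled, a shift remained over the 70 genes, with a median log2 difference of -0.10 for Old 1 minus Old 2 and -0.12 for Young 2 minus Young 1, about the size of the median difference between ages given below. Around these medians the robust SD (from the median absolute deviation) was 0.07 in Old and 0.06 in Young, and the plain SD was 0.22 and 0.15. Nothing in the labels says that they came from separate mice, so p-values measure only the spread between these samples, which may be technical. Scaled FPKM describes the share of mRNA in the tissue, and a smaller share of cells that express a gene and less RNA per cell cannot be told apart. Ages were compared on log2(scaled FPKM + 1) with limma over all 10266 genes that reached 1 FPKM in at least 2 samples, with Benjamini-Hochberg adjustment. For a single gene, an exact permutation of 2 against 2 samples cannot go below a two-sided p of 0.333.

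Every one of the 70 genes passed the filter on low values, and none was listed at 0 in any sample. Their mean levels ran from 6.16 scaled FPKM for Mrpl41 to 330.1 for Mrpl42, with a median of 33.7, and each lay above the median of the genes tested (5.51).

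Between ages, 5 of the 70 genes fell in Old muscle at an adjusted p under 0.05 and 0 rose. These 5 are 7.14% of the family, beside 7.94% of all genes tested that fell and 5.61% that rose, so the share that fell was close to the background. At an unadjusted limma p under 0.05 there were 16 members lower and 5 higher, beside 1812 and 1666 of all 10266 genes tested. The direction without a threshold was uneven. The log2 fold change was negative for 46 genes and positive for 24, and its median was -0.12 (quartiles -0.28 and 0.04), against -0.01 over all genes tested (quartiles -0.23 and 0.21). Both Old samples lay below both Young samples in 36 genes (51.4%), where 28.4% of all genes tested did so, and above them in 12 genes (17.1%), where 27.8% did so. No test of the whole family was made. A fold of at least 1.5 was also counted between the means of the ages, with 1 added to each mean and no test. It was reached downwards by Mrpl35 alone and upwards by 0 members, against 7.07% and 5.69% of all genes tested. Mrps14, with means of 31.0 in Old and 46.7 in Young, missed it only because of the added 1.

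**Figure D1:**
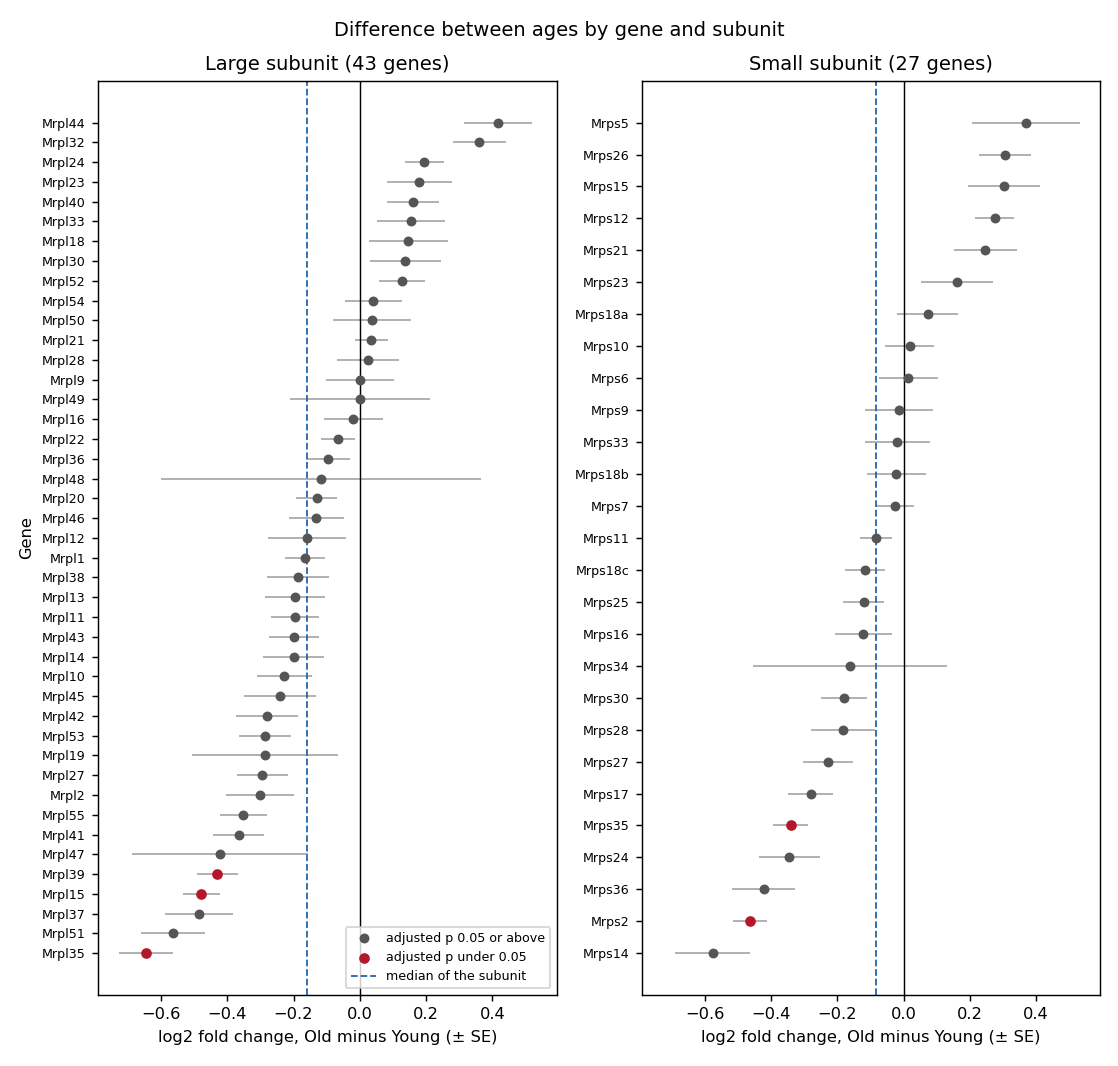
The log2 fold change, Old minus Young, of each of the 70 genes, ordered by size, in 1 panel for the large subunit (43 genes) and 1 for the small subunit (27 genes). Grey bars are the standard error, the dashed line is the median of the subunit and red points are genes with an adjusted p under 0.05, which are Mrpl35, Mrpl15, Mrpl39, Mrps2 and Mrps35, all to the left of 0.

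The 5 genes that fell belong to both subunits. Mrpl35, a large subunit protein with a bacterial counterpart (chr6:71812205-71823789 in mm10), had the largest difference. The Old samples had deposited values of 12.1 and 6.11 FPKM, and the Young samples of 10.2 and 19.6. After scaling these became 8.27 and 8.99 in the Old samples and 14.8 and 13.4 in the Young samples. The groups did not overlap, and the log2 fold change was -0.65 ± 0.08 (SE, n = 2 per age), with an adjusted p of 0.035 from limma. For the scaled level plus 1, this is 36.1% lower in Old.

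Mrpl15, a conserved protein of the large subunit (chr1:4773200-4785726), measured 13.9 and 14.6 scaled FPKM in Old 1 and Old 2. In Young 1 and Young 2 it measured 20.6 and 19.9. Both Old samples were the lower ones, with a log2 fold change of -0.48 ± 0.06 and a limma adjusted p of 0.0323. Mrpl39, a large subunit protein without a bacterial counterpart (chr16:84717580-84735302), measured 10.6 and 11.1 in Old and 15.4 and 14.5 in Young. These values did not overlap either, and its log2 fold change was -0.43 ± 0.06 with a limma adjusted p of 0.0412.

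In the small subunit, Mrps2 (chr2:28468066-28471177), which has a bacterial counterpart, measured 6.94 and 7.04 scaled FPKM in Old and 10.2 and 9.80 in Young. It had the smallest limma adjusted p of the family, 0.0296, at a log2 fold change of -0.46 ± 0.05. Mrps35, a protein found only in mitochondria (chr6:147042768-147073529), measured 14.1 and 13.8 in Old and 18.3 and 17.6 in Young. Its log2 fold change was -0.34 ± 0.05 with a limma adjusted p of 0.0459. It is the only one of the 5 not named by rule, and it was picked for the text after its values were seen. The others were named by a rule on the size of the fold change in these same data.

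All 5 lay in the lower part of the family by level. Of the 35 members with the higher mean levels none passed the threshold, and of the 35 with the lower levels 5 did, while the median log2 fold change was -0.12 in each. The share of all genes tested that passed at such levels was not counted, so this split cannot be read as a trait of the family. The 5 calls were made with 2 samples per age, and fits with 1 sample left out cannot check them. In such a fit only the other age gives the spread, and the lone sample is assumed to vary like it. Their calls are therefore not given. Across the 17 fits made, each of the 5 had a negative fold change in every fit, with limma adjusted p from 0.00565 to 1.00 for Mrpl35, Mrpl15, Mrps2 and Mrpl39 and from 0.0135 to 1.00 for Mrps35.

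Other members were lower in Old by as much or more but did not pass the test. Mrps14, a conserved protein of the small subunit head (chr1:160195260-160201186), measured 29.3 and 32.6 scaled FPKM in Old and 50.2 and 43.1 in Young. Its log2 fold change of -0.58 ± 0.11 was the second in size, with a limma adjusted p of 0.0623. Mrpl51, a large subunit protein found only in mitochondria (chr6:125191804-125196686), measured 78.1 and 87.0 in Old and 128 and 117 in Young. The groups were separate, and at -0.56 ± 0.10 its limma adjusted p was 0.0505, just outside the threshold.

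Mrpl37, another large subunit protein without a bacterial counterpart, measured 45.2 and 50.5 in Old and 71.2 and 63.5 in Young. Its log2 fold change was -0.48 ± 0.10 with a limma adjusted p of 0.0682. Mrps36 measured 62.5 and 68.7 in Old and 92.9 and 83.6 in Young, a log2 fold change of -0.42 ± 0.09 with a limma adjusted p of 0.0744. The protein of Mrps36 carries a ribosomal name but is known as a component of the alpha-ketoglutarate dehydrogenase complex of the citric acid cycle. In Mrps14, Mrpl51, Mrpl37 and Mrps36 both Old samples were below both Young samples.

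**Figure D2:**
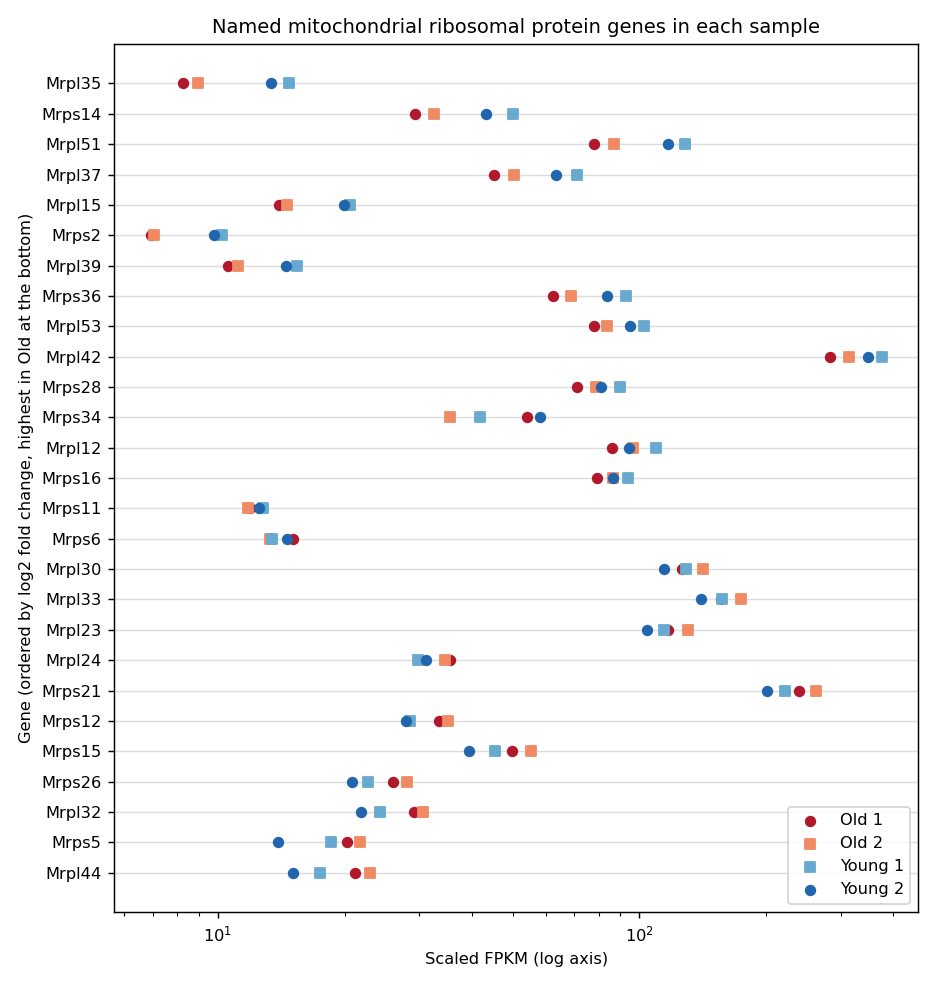
Scaled FPKM on a log axis in each of the 4 samples for the members named by rule, 1 row per gene, with colour for age. In Mrpl35 at one end, the Old samples (8.27 and 8.99) lie to the left of the Young samples (14.8 and 13.4), and in Mrpl44 at the other end they lie to the right (21.1 and 23.0 against 17.5 and 15.1).

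The 8 members with the largest positive fold changes did not pass the test in either subunit. Mrpl44, a large subunit protein with an RNase III fold (chr1:79776018-79781445), measured 21.1 and 23.0 scaled FPKM in Old and 17.5 and 15.1 in Young. Both Old samples were the higher ones, and the log2 fold change was 0.42 ± 0.10 with a limma adjusted p of 0.0851. Mrpl32, a conserved protein that a mitochondrial protease trims before it enters the large subunit (chr13:14610301-14613037), measured 29.2 and 30.7 in Old and 24.3 and 21.9 in Young. Its log2 fold change was 0.36 ± 0.08 with a limma adjusted p of 0.0721.

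In the small subunit, Mrps12, a conserved protein of the decoding site, measured 33.5 and 35.2 in Old and 28.5 and 27.9 in Young, a log2 fold change of 0.27 ± 0.06 with a limma adjusted p of 0.0695. Mrps26, found only in mitochondria, measured 26.0 and 28.1 in Old and 22.7 and 20.8 in Young, a log2 fold change of 0.31 ± 0.08 with a limma adjusted p of 0.0941. Mrps15 measured 49.8 and 55.3 in Old and 45.4 and 39.5 in Young, a log2 fold change of 0.30 ± 0.11. These 3 also had separate groups, with Old above Young.

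Mrps5, a conserved protein near the mRNA entry, had a log2 fold change of 0.37 with a wider error of 0.16. Its levels were 20.3 and 21.8 scaled FPKM in Old and 18.5 and 13.9 in Young. The gap between the Young samples was the larger part of that spread. Mrpl24 had a small difference, 0.19 ± 0.06, with 35.4 and 34.5 in Old and 29.8 and 31.1 in Young.

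Members at the highest levels were mixed. Mrpl42, a large subunit protein found only in mitochondria, was the most abundant by scaled FPKM and measured 282 and 314 in Old and 376 and 348 in Young. It lay lower in both Old samples, but its log2 fold change of -0.28 ± 0.09 had a limma adjusted p of 0.148. Mrps21, the most abundant member of the small subunit, lay on the other side, with 239 and 262 in Old and 221 and 200 in Young, a log2 fold change of 0.25 ± 0.10 and a limma adjusted p of 0.187.

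Mrpl33, Mrpl30 and Mrpl23, the next in the large subunit, had log2 fold changes of 0.15 ± 0.10, 0.14 ± 0.11 and 0.18 ± 0.10. In the small subunit, Mrps16 and Mrps28 had -0.12 ± 0.09 and -0.18 ± 0.10. Limma adjusted p lay between 0.311 and 0.498 for these 5 genes. Mrpl12, which also binds the mitochondrial RNA polymerase, was nearest to the median of the large subunit, with 85.9 and 96.3 in Old, 110 and 94.2 in Young and a log2 fold change of -0.16 ± 0.12. Mrps11, a conserved protein of the small subunit platform, was nearest to the median of the small subunit, with 11.9 and 11.8 in Old, 12.8 and 12.5 in Young and a log2 fold change of -0.08 ± 0.05.

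The subunits were compared next. Of the large subunit genes 28 of 43 (65.1%) had a negative fold change, and of the small subunit genes 18 of 27 (66.7%). The median log2 fold change was -0.16 in the large and -0.08 in the small subunit, a difference of -0.07 that is smaller than the quartile range of either. In the large subunit 3 genes (6.98%) fell. Both Old samples were below both Young samples in 24 (55.8%) and above them in 7 (16.3%). In the small subunit 2 genes (7.41%) fell, with 12 (44.4%) below and 5 (18.5%) above. Of all genes tested 7.94% fell, 28.4% lay below and 27.8% above. Moving Mrps30 and Mrps18a, whose proteins sit in the large subunit despite their names, left the medians at -0.16 and -0.08. Mrps36 was still counted in the small subunit by its symbol. Large subunit genes without a bacterial counterpart (18) had a median of -0.19 and those with one (25) had -0.13, and in the small subunit the medians were -0.12 (11 genes) and -0.06 (16 genes). Genes of a subunit are not replicates of an age, so the difference between subunits was not tested.

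**Figure D3:**
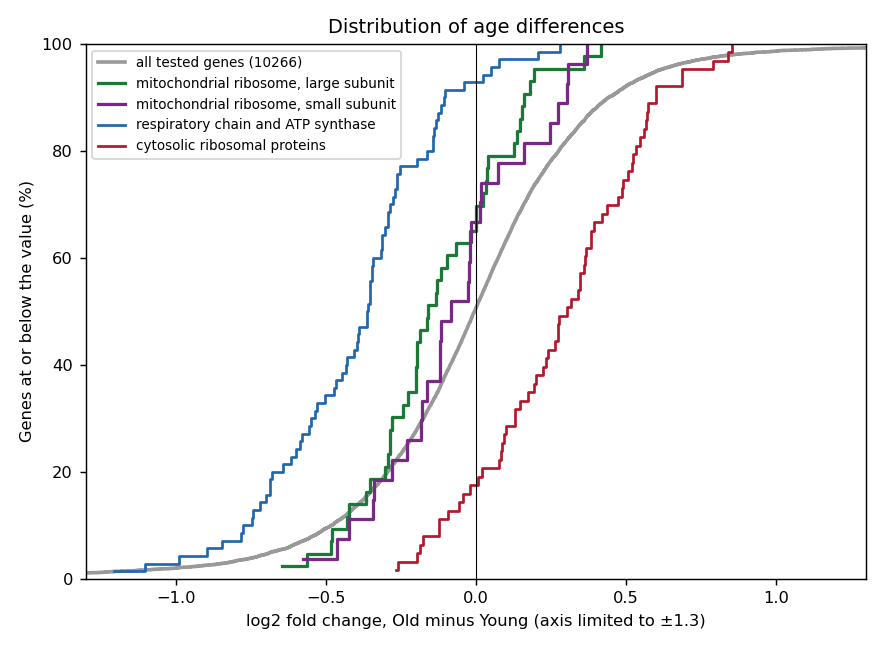
Cumulative percent of genes, vertical axis, at or below each log2 fold change (Old minus Young), horizontal axis limited to 1.3 on either side of 0, for the large and small subunit of the mitochondrial ribosome, comparison lists and all genes tested. The lines of both subunits lie close together (medians -0.16 and -0.08), between the respiratory chain on the left (median -0.36) and the cytosolic ribosomal proteins on the right (median 0.30).

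The samples could also be set against each other across ages by the factor described above. Old 1 and Young 2 were the samples with the higher deposited values and Old 2 and Young 1 those with the lower. Within these crossed pairs, chosen after the values were seen, the median difference over the family was -0.11 for Old 1 minus Young 2 and -0.13 for Old 2 minus Young 1 on the log2 scale. Both differences were negative in 43 genes, both positive in 20 and of opposite sign in 7, and the median gap between them was 0.02. Over all 10266 genes tested, the deviations of crossed samples from the mean of their age correlated at 0.903. Agreement between the pairs is thus not particular to the family, and the share of all genes with the same sign in both was not counted. Mrpl35 had -0.63 and -0.66, Mrps2 had -0.44 and -0.48, and Mrpl44 had 0.46 and 0.38. With the crossed pair as a block in limma, 36 members (51.4%) passed an adjusted p of 0.05 as lower and 14 (20.0%) as higher, against 34.1% and 31.6% of all genes tested. That block takes the pairing from the values and not from the labels, so its p-values rest on a pairing that the study does not state.

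**Figure D4:**
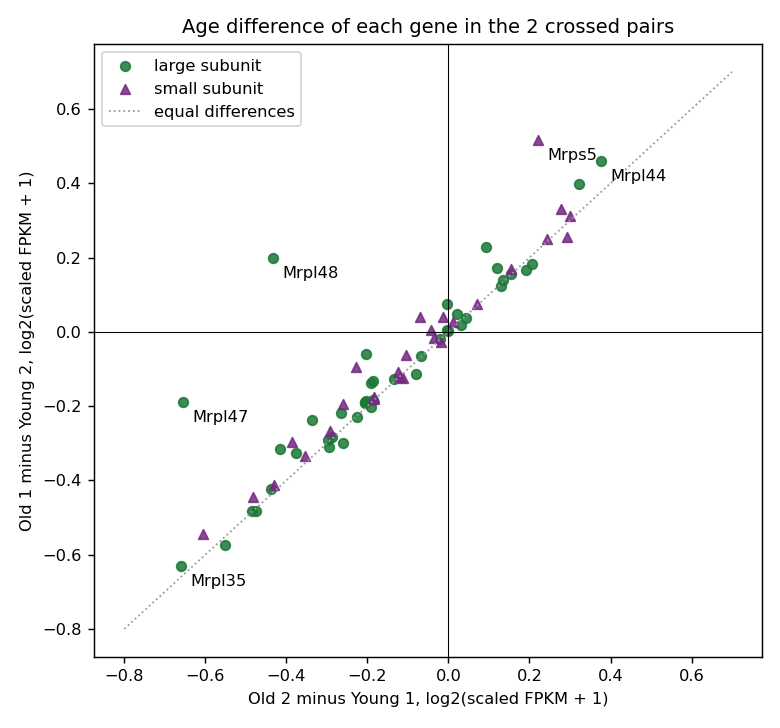
Difference between ages of each of the 70 genes in the crossed pairs, with Old 2 minus Young 1 on the horizontal and Old 1 minus Young 2 on the vertical axis, both as log2(scaled FPKM + 1). Most points lie near the diagonal, with 43 genes negative in both pairs and 20 positive in both, and Mrpl48 (-0.43 and 0.20) lies farthest from it.

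A few genes, picked for the text after their values were seen, stood out by the ratio between samples of the same age. Mrpl48, a large subunit protein found only in mitochondria, measured 52.9 and 23.5 scaled FPKM in Old and 32.0 and 46.0 in Young. Its groups overlapped, and the log2 fold change of -0.12 had a standard error of 0.48. Its deposited values were 4.85 times as high in Old 1 as in Old 2 and 3.06 times as high in Young 2 as in Young 1, where the family medians were 2.0 and 1.95.

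Mrpl47 had ratios of 3.54 and 2.46 in the same pairs, Mrpl19 had 3.07 and 2.79 and Mrpl49 had 2.86 and 2.83. Each of these 4 loci also holds another RefSeq gene, Rab6a and Cox20b with Mrpl48, Actl6a with Mrpl47, Gcfc2 with Mrpl19 and Syvn1 and Mir6988 with Mrpl49. In all, 23 of the 70 loci hold another RefSeq gene, and not all of them had high ratios. The ratios were 1.93 and 1.94 for Mrpl51 (Ncapd2 and Mir3098), 1.92 and 1.90 for Mrpl37 (Cyb5rl) and 1.97 and 1.84 for Mrpl44 (Wdfy1). For the value shared by Mrps34 and Nme3 they were 3.28 and 2.96. The methods name a stranded library kit and the labels a kit without that word, and whether the counting used strand is not given in the sources used here, so reads of overlapping genes in these loci may have been shared, and the effect of this was not tested.

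In 3 cases 1 value stands for a member and for another gene together. The value shared by Mrpl53 and Ccdc142 was 78.1 and 83.8 in Old and 103 and 95.2 in Young, a log2 fold change of -0.29 ± 0.08 with a limma adjusted p of 0.105. The value shared by Mrps34 and Nme3 was 54.2 and 35.6 in Old and 41.9 and 57.9 in Young, with a log2 fold change of -0.16 ± 0.29. Samples of each age were far apart there, and the groups overlapped. The value shared by Mrps6 and Slc5a3 was 15.0 and 13.3 in Old and 13.5 and 14.6 in Young, with a log2 fold change of 0.01 ± 0.09. Mrpl46 and Mrps11, whose loci lie 41 bases apart on chromosome 7, are the closest members on the genome, and the next pair (Mrpl10 and Mrpl45) is 266502 bases apart. Their log2 fold changes were -0.13 ± 0.08 and -0.08 ± 0.05, and neither passed the test.

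Promoter sequences were read from RefSeq (GRCm38.p6) for 62 of the 70 members, as the 250 bases before and 50 after the most upstream start listed. They were searched on both strands for letters bound by factors known to act on genes for mitochondrial proteins. The letters were GCATGCGC for NRF1, CCGGAAGT for the ETS factors (which include GABPA), AAGATGGCG for YY1, TCAAGGTCA for the estrogen-related receptors and CCAAT for NF-Y. Each promoter shown here holds NRF1 or ETS letters, with a member lower in Old (Mrpl39, which fell, and Mrpl51, which did not pass) set beside a member with a positive fold change (Mrpl32 and Mrps26, not past the test). The 250 bases before the start are given 5′ to 3′ on the strand of the gene, with any of these letters in capitals, either as spelled or as their reverse complement. Mrpl39 is chr16:84735245-84735494 (minus strand), Mrpl32 is chr13:14613038-14613287 (minus strand), Mrpl51 is chr6:125191950-125192199 (plus strand) and Mrps26 is chr2:130563507-130563756 (plus strand).
Mrpl39: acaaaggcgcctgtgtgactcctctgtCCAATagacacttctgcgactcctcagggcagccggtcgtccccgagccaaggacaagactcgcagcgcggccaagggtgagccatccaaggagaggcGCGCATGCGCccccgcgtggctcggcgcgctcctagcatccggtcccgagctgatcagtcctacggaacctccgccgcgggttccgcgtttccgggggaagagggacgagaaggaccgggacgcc
Mrpl32: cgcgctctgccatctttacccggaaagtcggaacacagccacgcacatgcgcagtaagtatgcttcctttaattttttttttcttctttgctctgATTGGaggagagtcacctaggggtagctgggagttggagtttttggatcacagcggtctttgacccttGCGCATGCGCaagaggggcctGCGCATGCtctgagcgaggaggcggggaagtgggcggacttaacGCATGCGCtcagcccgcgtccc
Mrpl51: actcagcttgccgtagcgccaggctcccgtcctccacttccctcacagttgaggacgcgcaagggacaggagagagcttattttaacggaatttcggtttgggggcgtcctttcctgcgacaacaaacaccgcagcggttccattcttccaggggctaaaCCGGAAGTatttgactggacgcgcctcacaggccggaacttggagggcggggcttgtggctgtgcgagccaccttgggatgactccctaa
Mrps26: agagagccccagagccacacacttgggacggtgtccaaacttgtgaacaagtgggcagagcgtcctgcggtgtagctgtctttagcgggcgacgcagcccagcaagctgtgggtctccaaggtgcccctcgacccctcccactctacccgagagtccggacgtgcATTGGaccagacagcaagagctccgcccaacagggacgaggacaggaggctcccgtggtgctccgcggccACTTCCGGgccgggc

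The NRF1 letters lie from base 123 to 116 before the start of Mrpl39, where the same stretch read on the opposite strand gives an overlapping match. In Mrpl32 they occur from 85 to 78 and from 22 to 15 on the strand of the gene, and from 87 to 80 and from 66 to 59 on the opposite strand. The ETS letters lie from 90 to 83 before the start of Mrpl51 and, on the opposite strand, from 15 to 8 before that of Mrps26. The promoters were picked to show NRF1 and ETS letters in members on either side of 0, so that placing follows from the choice.

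Over the 62 member promoters, NRF1 letters were found in 7 (11.3%), beside 2.80% of all 27025 promoters and 5.74% of the 6850 promoters of genes tested. Of these 7 genes, 4 had a negative fold change, and the median log2 fold change was -0.02 with the letters and -0.12 without. ETS letters were found in 9 (14.5%), beside 3.99% of all and 8.88% of those of tested genes, with medians of -0.12 with and -0.10 without them. YY1 letters were found in 8 (12.9%), beside 1.48% and 3.36%, with 7 of the 8 genes negative and medians of -0.25 and -0.05. The YY1 letters contain a start codon, and only 2 of those 8 genes had them before the transcription start. Estrogen-related receptor letters were found in 0 of the 62, beside 0.407% of all promoters, and CCAAT in 25 (40.3%), beside 38.0%. The median GC content was 58.5% in the member promoters, 52.7% in all and 61.3% in those of tested genes. These are matches of letters and do not show binding.

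Other genes of mitochondrial gene expression were described from lists written by hand. Named subunits of the same ribosome outside the Mrpl and Mrps symbols (5 tested) had 0 calls by limma (1 lower and 0 higher at an unadjusted p under 0.05), with log2 fold changes of -0.32 for Dap3, -0.18 for Ptcd3, -0.05 for Aurkaip1, -0.03 for Ict1 (the older symbol of Mrpl58) and 0.14 for Chchd1. Of 18 translation factors 1 fell, Tsfm, the elongation factor that recharges Tufm, at -0.47 ± 0.05 with a limma adjusted p of 0.030. Tufm itself had -0.49 with a limma adjusted p of 0.064. Of 22 ribosome assembly factors 5 fell and 0 rose by limma (5 and 4 at an unadjusted p under 0.05). They were Mrm1, which methylates the ribosomal RNA (-0.80), Nsun4 (-0.52), the RNA chaperone Eral1 (-0.43), Rnmtl1 (-0.38) and Mettl17 (-0.37), and the list median was -0.04. The share that fell was 5.56% of the translation factors and 22.7% of the assembly factors, beside 7.94% of all genes tested. Unadjusted limma p under 0.05 was reached by 1812 lower and 1666 higher genes of all 10266 tested.

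Of 18 mitochondrial aminoacyl-tRNA synthetases and related enzymes, which load transfer RNAs with amino acids, 6 fell and 1 rose, with a median of -0.26. These were 33.3% and 5.56% of the list, beside 7.94% and 5.61% of all genes tested. At an unadjusted limma p under 0.05, 8 were lower and 2 higher, beside 1812 and 1666 of all 10266 genes tested. Fars2 (-0.80), Mars2 (-0.55), Qrsl1 (-0.42) and Aars2 (-0.40) were the largest of those that fell, and Rars2 rose by 0.33. Of 12 genes of mitochondrial DNA transcription and replication, Ssbp1, which coats single-stranded DNA, fell (-0.37) and Top1mt, a topoisomerase, rose (0.71). Each was 8.33% of its list, near the same background shares. At an unadjusted limma p under 0.05, 4 of the 12 were lower and 1 higher.

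Nuclear genes of the respiratory chain and of the cytosolic ribosome had medians further from 0 than the family. Of 70 nuclear genes of the respiratory chain and ATP synthase, 24 fell and 0 rose by limma (47 and 0 at an unadjusted p under 0.05). In this list 65 had a negative fold change and the median was -0.36. The proteins of most of these genes, but not of Sdha, Sdhb and Sdhc (complex II), assemble with proteins that the mitochondrial ribosome makes. Atp5g1 (-1.20), Cyc1 (-1.10), Cox6a1 (-0.99) and Cox7a1 (-0.90) had the largest fold changes among the 24 that fell. Of 63 cytosolic ribosomal protein genes 5 rose and 0 fell by limma (30 and 1 at an unadjusted p under 0.05), 52 had a positive fold change and the median was 0.30, with the largest fold changes among the 5 that rose in Rps6 (0.85), Rpl7a (0.84), Rps20 (0.79) and Rpl38 (0.57). The 24 that fell were 34.3% of their list, beside 7.94% of all genes tested. The 5 that rose were 7.94% of theirs, beside 5.61%. Unadjusted limma p under 0.05 was reached by 1812 lower and 1666 higher genes of all 10266 tested. Differences between these lists and the family were not tested.

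Markers of fiber type and of other cells also moved with age. All 5 slow fiber genes tested rose, with a summed level of 619.1 to 798.1 scaled FPKM in Old and 40.6 to 49.6 in Young. The hemoglobin label Hba-a1 with Hba-a2, the only blood marker tested, rose from a range of 57.3 to 60.3 to a range of 408.1 to 415.4. Summed leukocyte markers were 19.3 to 25.0 in Old and 30.6 to 37.4 in Young (2 of 8 fell), and summed fibroblast markers 138.9 to 153.1 and 192.4 to 208.6 (3 of 8 fell). The fibroblast markers were split. Both Old samples lay below both Young samples in 5 of them and above in 3 (Dcn, Dpt and Pdgfra). Endothelial markers summed to 88.7 to 95.2 in Old and 100.8 to 108.8 in Young (1 of 7 fell and 1 rose), Schwann cell markers to 18.1 to 18.4 and 24.9 to 25.3 (1 of 2 fell), and adipocyte markers to 253.9 to 315.0 and 276.3 to 353.5 (0 of 6 called). The adipocyte sums include Cfd, which was listed at 0 in Old 2 and Young 1 and measured 81.3 in Old 1 and 100.1 in Young 2. Adipoq was higher in both Old samples (5.80 and 4.37) than in both Young samples (1.99 and 2.93), and Lipe was lower in both. Of the myofiber markers, Mb, Actn3, Pvalb, Myh2 and the label of Des with Speg had values in all samples, while Ckm and Myh4 were listed at 0 in all 4, Ttn and Tnnt3 in both Old samples and Myh1 in both Young samples. Genes that muscle uses at high levels were thus listed at 0, which can be a failed estimate. The part of fiber type, of other cells and of such zeros in the differences of the 70 genes was not tested.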

How the data were processed

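TA muscle mRNA-seq of 2 samples aged 20 months and 2 aged 3 months was grouped by the age in the labels. The authors deposited FPKM on mm10, 1 value for each locus and sample, from Cufflinks on TopHat2 (2.0.10) alignments with RefSeq gene models, after adapters, poor-quality ends and PCR copies had been taken out. The submitters' processing notes also name Cuffdiff 2.1.1. Per the file headers and values, FPKM holds no read counts, so depth is unknown and no count test or counting interval is given.

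An incomplete last line of each sample was left out. Loci present in all 4 samples (20605) were kept and summed by symbol to 20340 gene labels. They end, with chromosomes in text order, within chromosome 7, and members beyond were not analysed here. Samples were scaled by the median of ratios over the 7228 genes that reached 1 FPKM in every sample. A pseudocount of 1 was added to the scaled values before taking log2, so fold changes of low genes are understated. limma 3.58.1 in R 4.3.3 (lmFit, eBayes with a trend, two-sided) was fitted to the 10266 genes that reached 1 FPKM in 2 or more samples, with an adjusted p threshold of 0.05. The script was tested on simulated data. Tables, promoter searches and figures used Python 3.11.15, pandas 2.3.3, numpy 2.4.6 and matplotlib 3.10.9.

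Named members were the 8 with the largest positive and the 8 with the largest negative fold changes, the 4 of each subunit with the highest level, the member nearest each subunit's median and those sharing a value with another symbol. From the other lists, up to 4 called genes with the largest changes were named, and further names were chosen after their values were seen. The members and lists were chosen with earlier results of these data known. Lists were described by counts and medians and not tested. Alternatives were a fold without a test, leaving out each sample, other scalings and filters, another pseudocount, only the highest locus of a symbol, no trend in limma, and a block for the replicate number. A block for the crossed pairs, in which Old 1 goes with Young 2 and Old 2 with Young 1, was added after seeing the data, on scaled and on deposited values.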

Additional observations from a re-analysis of the deposited data

How the results depend on the processing

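Calls of single members depended on the processing more than their direction. The main setting gave 5 lower and 0 higher members (3 and 2 lower in the large and small subunit). There were 0 lower and 0 higher on the values as deposited, after quantile normalization and after scaling to the same sum. Few of all genes tested passed there either. The shares were 0.127% lower and 0.175% higher as deposited, and 1.83% and 1.16% after quantile normalization. After scaling to the same sum they were 0.0487% and 0.0682%. There were also 0 and 0 without a filter on low values, without the trend of limma and with the replicate number as a block. In these fits an unadjusted limma p under 0.05 gave 0 to 18 lower and 0 to 6 higher. The replicate numbers do not mark shared mice in the labels, and the deviations of same-numbered samples correlated at -0.903 over 10266 genes. Cyclic loess gave 21 lower and 6 higher (13 and 3 large, 8 and 3 small), where 13.6% and 11.1% of all genes tested passed, and requiring 1 FPKM in all 4 samples gave 11 and 3 (7 and 2 large, 4 and 1 small), where 18.0% and 16.9% did. A pseudocount of 0.1 and the highest locus per symbol gave 6 lower and 0 higher each, where 8.49% and 8.32% of all genes were lower. The crossed pairs as a block gave 36 lower and 14 higher (24 and 8 large, 12 and 6 small), and 37 and 14 on deposited values (24 and 8 large, 13 and 6 small), where 32.9% and 27.4% of all genes passed. A fold of 1.5 between means with 1 added, without a test, gave 1 lower (1 large, 0 small). Leaving out 1 sample gave family medians of -0.13 to -0.09. Scaling to the same sum moved the median of all genes to 0.07, that of the family to -0.024 and that of the large subunit to -0.057. The cause of these differences was not tested.

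Of the 70 members, 53 kept their sign in all 17 fits, and those that did not had a main log2 fold change of at most 0.16 in size. Mrps11 turned to 0.011 with scaling to the same sum. Leaving out 1 sample gave -0.068 to 0.095 for Mrps6 (negative without Old 1 or Young 1) and -0.46 to 0.13 for Mrps34 (positive without Old 2 or Young 2). In the lists with a printed count, the deposited values gave 0 calls, where 0.127% of all genes tested passed as lower and 0.175% as higher. Cyclic loess gave 3 lower translation factors, 3 higher assembly factors, 20 higher cytosolic ribosomal protein genes and a respiratory chain median of -0.31. Without counts, depth could not be used to set the precision of any value.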
